A study of Mus musculus with 18 samples.

Results

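Mouse organoids grown from the distal colon were compared between a differentiation medium and a control medium by RNA sequencing. The genes described are those with a value of at least 1 FPKM (a read count scaled to gene length and to library size) in at least 3 of the 6 distal libraries, which holds for 11604 of the 56748 genes in the table. The first group is 3 libraries of distal organoids in differentiation medium, whose composition the labels do not give. The second is 3 libraries of distal organoids in ENR + WntCM, a medium of EGF, Noggin and R-spondin with Wnt3a-conditioned medium, which the labels call the proliferative state. The labels put the change of medium 3 days after passaging, for both groups. Mid and proximal organoids, with 3 libraries in each medium, served to fit the model and to compare regions. Organoids are epithelial cultures without the blood vessels, nerves and immune cells of the gut wall, and the labels state neither how many mice gave them nor whether replicates came from separate mice, so p-values measure only the spread between these libraries, which may be technical. Each library is a mixture of all cells in a culture, and fewer cells of a type and less RNA per cell cannot be told apart.

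In the colon, stem cells at the crypt base are kept dividing by Wnt and EGF signals, while Noggin holds back BMP. Cells that leave the base stop dividing and mature into absorptive colonocytes, which take up water, salt and short-chain fatty acids, or into mucus-making goblet cells, hormone-making enteroendocrine cells and chemosensory tuft cells. Differentiation of organoids is usually started by taking away the Wnt source.

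The recovered depth was 12827751, 18772528 and 14857742 reads in differentiation libraries 1 to 3, and 17424554, 17383308 and 15608565 reads in control libraries 1 to 3. Genes of at least 1 FPKM numbered 10824 to 11244 in differentiation libraries and 11325 to 11401 in control libraries. Mitochondrially encoded genes took 3.99% to 5.57% of reads in differentiation libraries, against 2.16% to 2.99% in control libraries. The share of reads in the top 10 genes was 9.04% to 11.8% in differentiation libraries, against 5.75% to 6.43% in control libraries. The distal label was checked on Hoxd13, a homeobox gene of the posterior body, which had 19.6, 28.5 and 20.7 FPKM in differentiation libraries, against 58.2, 74.2 and 41.4 FPKM in control libraries, and 0 FPKM in every mid and proximal library. All 10 epithelial marker genes passed the filter, 8 of them higher and 1 lower in differentiation medium (5 and 1 when values are scaled to summed reads), and Epcam, the surface protein of epithelial cells, had 1182, 806 and 741 FPKM with differentiation medium, against 383, 346 and 502 FPKM with control medium.

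The change of medium moved most expressed genes. Of the 11604 genes, 7675 (66.1%) passed the test at an adjusted p under 0.05, 3896 (33.6%) higher and 3779 (32.6%) lower in differentiation medium. The rises reached further than the falls, since 69 genes rose and 5 fell by at least 4 on the log2(FPKM + 1) scale on which all fold changes here are given, differentiation over control. Values in brackets after a gene are its log2 fold change with the SE of the limma fit and the Benjamini-Hochberg adjusted p. The SE pools the spread over all 18 libraries, so it and the p-value may be too small for a gene near 0 in another region. Hoxd13, Aqp8, Slc37a2 and Cdo1 are such genes in proximal organoids. At least 2 log2 units separated the media for 448 genes that rose and 319 that fell. The libraries of the 2 media did not overlap for 7627 genes (65.7%). The split of calls depends on how the libraries are scaled. Median-of-ratios scaling sets each library by the median ratio of its genes to their average over libraries. It left the split nearly unchanged, at 3859 higher and 3813 lower. Scaled to summed reads in place of the authors' library size, 2260 genes were called higher and 5749 lower, and the median of all genes moved to -0.36, against 0.02 with the deposited scaling. Changes are therefore best read against that shift, and counts under this scaling are given beside the gene lists in which it moved the share of members called higher or called lower by over 10 percentage points. The filter also fixes some directions: 298 genes reached 1 FPKM in no control library and 467 in no differentiation library, so that they were tested because they were high in 1 medium. For any gene below that stays under 1 FPKM in every library of 1 medium, the filter set the direction, and its p-value carries that limit. Among them are Car4, Slc5a8, Dpep1, Prss30 and Id3, which rose, and Nox1, Krt90, Kcne3, Fads1 and Evx2, which fell. Of the genes described, 953 met the limit of 1 FPKM in exactly 3 libraries, with a median highest value of 2.73 FPKM, while 592 genes met it in 2 and stayed outside, with a median highest value of 1.64 FPKM.

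**Figure D1:**
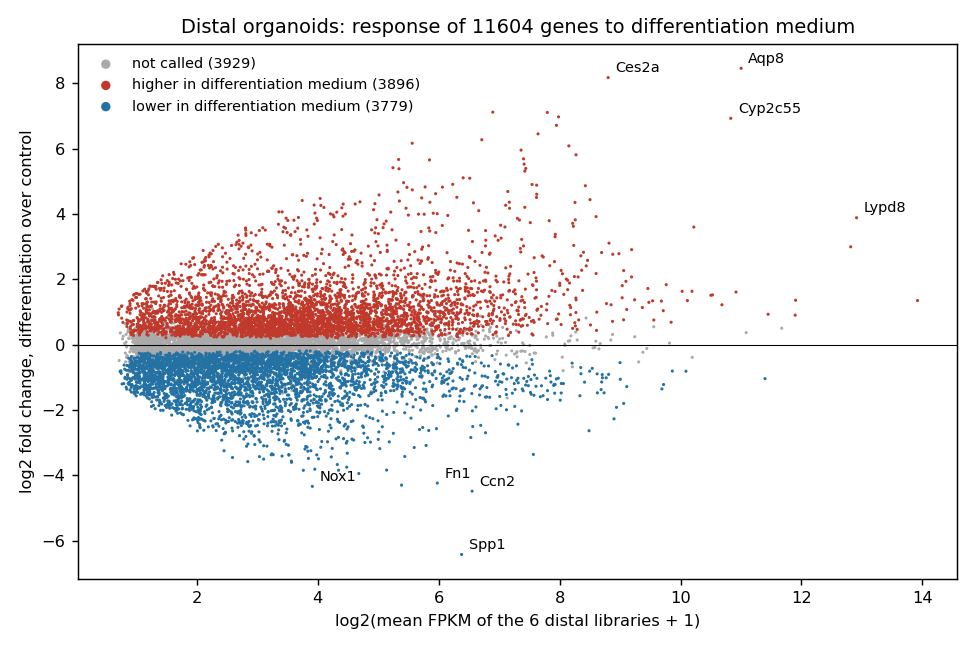
Each point is 1 of 11604 genes, with the log2 of its mean FPKM + 1 over the 6 distal libraries on the horizontal axis and its log2 fold change, differentiation over control, on the vertical axis. The 3896 genes called higher are red, the 3779 called lower blue and the rest grey; the rises reach 8.46 (Aqp8) and the falls -6.42 (Spp1).

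The crypt programme that Wnt maintains was low in differentiation medium. Of 17 measured crypt stem and Wnt genes 15 fell, 1 rose and 1 was not called, with a median log2 fold change of -2.02, against 0.02 over all genes. Lgr5, Ascl2 and 4 others of these reached 1 FPKM in control libraries only, and of the remaining 11 genes 9 fell. Axin2, a feedback inhibitor of Wnt signalling and a standard readout of it, had 0.0935, 0.132 and 1.14 FPKM in differentiation libraries and 14.2, 15.8 and 14.3 FPKM in control libraries. Every differentiation library lay below every control library, and the log2 fold change was -3.51 ± 0.32 (SE, adjusted p = 4.0e-07). Ascl2, the transcription factor of the colon stem cell state, had 0, 0 and 0.178 FPKM in differentiation libraries, against 18.1, 8.25 and 10.4 FPKM in control libraries. The stem cell receptor Lgr5, which binds R-spondin, had 0, 0 and 0.0352 FPKM with differentiation medium, against 3.13, 3.06 and 2.65 FPKM with control medium. For both, 2 differentiation libraries were at 0 reads and differentiation library 3 held the few that were seen. Their log2 fold changes were -3.58 ± 0.24 (SE, adjusted p = 1.8e-08) for Ascl2 and -1.96 ± 0.10 (SE, adjusted p = 1.2e-09) for Lgr5, and no ratio is given since the differentiation values are near 0. Myc, a growth-promoting transcription factor and Wnt target, had 5.04, 9.10 and 23.5 FPKM in differentiation libraries and 93.7, 101 and 94.3 FPKM in control libraries. Differentiation library 3 kept the highest Myc value of its group, still below all control libraries (-3.09 ± 0.38 SE, adjusted p = 6.9e-06). Sox9, a crypt base transcription factor, had 2.27, 4.11 and 5.90 FPKM in differentiation libraries, against 27.2, 32.8 and 43.4 FPKM in control libraries, with no overlap (-2.84 ± 0.35 SE, adjusted p = 6.9e-06). Cdca7, a Myc target, had 0.225, 0.623 and 2.03 FPKM with differentiation medium, against 23.7, 19.96 and 18.4 FPKM with control medium (-3.57 ± 0.38 SE, adjusted p = 1.7e-06), and the adhesion receptor Cd44 had 3.18, 3.12 and 11.3 FPKM in differentiation libraries and 38.9, 22.3 and 85.1 FPKM in control libraries (-2.85 ± 0.49 SE, adjusted p = 1.2e-04). Prom1, which encodes the membrane protein CD133, went the other way, with 159, 143 and 187 FPKM in differentiation libraries, against 72.4, 49.9 and 72.4 FPKM in control libraries (1.33 ± 0.22 SE, adjusted p = 9.2e-05).

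Genes of chromosome duplication and division fell with the crypt genes. All 23 mitosis genes fell, with a median of -2.57, and 30 of 33 DNA replication genes fell, with a median of -1.66; 3 replication genes were not called and none rose. Leaving out genes that reached 1 FPKM in control libraries only, 18 of 18 mitosis and 18 of 21 replication genes fell. Top2a, the topoisomerase that untangles sister chromosomes, had 1.49, 0.791 and 3.37 FPKM with differentiation medium, against 25.2, 37.2 and 20.8 FPKM with control medium. The groups did not overlap, and the log2 fold change was -3.38 ± 0.52 (SE, adjusted p = 5.3e-05). Mki67, the proliferation antigen Ki-67, had 0.870, 0.865 and 4.15 FPKM in differentiation libraries and 21.2, 39.3 and 16.3 FPKM in control libraries (-3.25 ± 0.59 SE, adjusted p = 2.0e-04). Cdc20, the activator of the complex that ends mitosis, had 0.386, 1.16 and 7.51 FPKM in differentiation libraries, against 38.9, 49.9 and 29.7 FPKM in control libraries (-3.75 ± 0.76 SE, adjusted p = 4.7e-04). Differentiation library 3 was well above the other two libraries of its medium in both, and it was the highest of its group in all 23 mitosis genes, while control library 2 was the highest of its group in all 23. Mcm5 and Mcm6 encode subunits of the helicase that opens DNA for copying. Mcm5 had 0.361, 0.787 and 2.07 FPKM with differentiation medium, against 14.97, 27.7 and 16.9 FPKM with control medium (-3.37 ± 0.63 SE, adjusted p = 2.4e-04). Mcm6 had 0.773, 1.30 and 3.47 FPKM in differentiation libraries and 18.4, 29.7 and 25.9 FPKM in control libraries (-3.26 ± 0.51 SE, adjusted p = 5.4e-05). The sliding clamp Pcna did not pass the test: its libraries overlapped, at 60.7, 25.3 and 23.2 FPKM in differentiation libraries, against 35.4, 57.1 and 45.5 FPKM in control libraries (-0.44 ± 0.31 SE, adjusted p = 0.22), although without differentiation library 1 it was called lower at -0.87 (adjusted p = 0.0085).

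The promoters of mitosis genes commonly carry the CHR element (searched as TTTGAA, on both strands) and the CCAAT box (CCAAT, both strands). RefSeq windows of 250 bases before to 50 after the start, on GRCm38.p6, were at hand for 8365 of the 10365 protein-coding genes tested. Among 21 windows of 20 mitosis genes, 16 (76.2%) held the CHR letters and 19 (90.5%) the CCAAT letters. Over all windows of tested genes the shares were 11.8% and 37.8%, and over all 32851 windows at hand they were 17.9% and 37.4%. A match of letters is a description and not a mapped binding site. The 180 bases before the start of 3 mitosis genes follow, 5′ to 3′ on the strand of the gene, shown because every gene of the list fell, with CHR and CCAAT letters of either strand in capitals. They are Top2a (chr11:99024190-99024369, minus strand), Ccnb2, a mitotic cyclin (chr9:70421555-70421734, minus strand), and Kif11, a spindle motor (chr19:37376202-37376381, plus strand).
Top2a: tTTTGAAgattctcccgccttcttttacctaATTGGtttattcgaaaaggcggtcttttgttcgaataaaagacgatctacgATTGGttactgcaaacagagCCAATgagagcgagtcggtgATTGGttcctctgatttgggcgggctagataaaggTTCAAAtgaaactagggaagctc
Ccnb2: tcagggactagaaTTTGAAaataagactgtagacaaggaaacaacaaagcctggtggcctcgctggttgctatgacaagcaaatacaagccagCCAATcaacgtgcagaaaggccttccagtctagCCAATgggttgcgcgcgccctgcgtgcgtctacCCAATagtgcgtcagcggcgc
Kif11: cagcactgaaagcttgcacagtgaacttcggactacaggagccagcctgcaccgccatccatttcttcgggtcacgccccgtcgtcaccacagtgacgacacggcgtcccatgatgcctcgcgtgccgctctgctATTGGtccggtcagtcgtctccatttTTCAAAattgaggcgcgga

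In Top2a the CHR letters begin 23 and 179 bases before the start, and in Kif11 a CHR match lies 19 and a CCAAT match 45 bases before it. Ccnb2 had 1.14, 1.18 and 6.05 FPKM with differentiation medium, against 21.7, 39.4 and 23.9 FPKM with control medium, and Kif11 0.235, 0.267 and 1.13 FPKM in differentiation libraries and 7.02, 12.1 and 5.71 FPKM in control libraries, without overlap in either; both were picked for the display after their values were seen. For the helicase genes the letters of the E2F site, the element of S phase genes, were searched in 8 forms (TTTCCCGC, TTTCGCGC, TTTGCCGC, TTTGGCGC and the reverse complement of each). Windows were at hand for only 25 of 33 replication genes (75.8%), a smaller part of the list than for the mitosis genes (87.0%). No share is therefore given for the replication list. The windows of Mcm6 (chr1:128359706-128359885, minus strand) and Mcm5 (chr8:75109329-75109508, plus strand) are shown as examples, with the E2F letters of either strand in capitals.
Mcm6: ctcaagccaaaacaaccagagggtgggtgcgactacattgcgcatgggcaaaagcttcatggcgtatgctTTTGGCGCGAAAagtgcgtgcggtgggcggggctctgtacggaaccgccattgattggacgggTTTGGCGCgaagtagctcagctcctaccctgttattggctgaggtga
Mcm5: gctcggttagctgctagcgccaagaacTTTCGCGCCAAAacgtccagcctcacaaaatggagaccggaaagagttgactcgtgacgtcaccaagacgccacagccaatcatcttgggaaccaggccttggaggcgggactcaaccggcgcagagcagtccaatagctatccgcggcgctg

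Genes of ribosome production and of amino acid synthesis fell in the same libraries. All 25 measured ribosome biogenesis genes fell, with a median of -1.89. Gar1, a component of the particles that modify ribosomal RNA, had 0.661, 1.45 and 2.79 FPKM in differentiation libraries, against 19.8, 20.7 and 14.2 FPKM in control libraries. The control values were all higher, and the log2 fold change was -2.93 ± 0.39 (SE, adjusted p = 1.5e-05). Nop56, a core protein of such particles, had 2.01, 4.17 and 9.81 FPKM with differentiation medium, against 44.7, 39.4 and 38.8 FPKM with control medium (-2.92 ± 0.48 SE, adjusted p = 8.2e-05), and the methyltransferase fibrillarin (Fbl) had 2.03, 3.39 and 6.15 FPKM in differentiation libraries and 28.6, 27.7 and 23.97 FPKM in control libraries (-2.60 ± 0.36 SE, adjusted p = 2.1e-05). In 22 of the 25 genes differentiation library 3 was the highest of its medium. Of 19 amino acid synthesis and one-carbon genes 16 fell, 2 rose and 1 was not called. Phgdh, the first enzyme of serine synthesis, had 1.04, 2.12 and 11.3 FPKM in differentiation libraries, against 92.99, 55.6 and 42.3 FPKM in control libraries (-3.84 ± 0.58 SE, adjusted p = 4.1e-05). Psat1, the next enzyme, had 2.91, 3.51 and 9.76 FPKM with differentiation medium, against 78.1, 71.3 and 23.9 FPKM with control medium (-3.18 ± 0.50 SE, adjusted p = 5.7e-05). The amino acid transporter gene Slc7a5 had 1.36, 2.15 and 3.51 FPKM in differentiation libraries and 53.6, 34.9 and 11.7 FPKM in control libraries (-3.18 ± 0.55 SE, adjusted p = 1.4e-04). Control library 3 was the lowest control in 17 of the 19 genes and control library 1 the highest in 14, so that the size of these falls varied with the control library, though no differentiation library reached any control in Phgdh, Psat1 or Slc7a5. Cth, which makes cysteine from cystathionine, rose, with 45.95, 46.3 and 27.5 FPKM in differentiation libraries, against 23.2, 9.28 and 4.53 FPKM in control libraries (1.84 ± 0.40 SE, adjusted p = 8.9e-04), while Cdo1, which breaks cysteine down, fell, with 0.689, 0.515 and 1.80 FPKM with differentiation medium, against 35.1, 33.7 and 14.9 FPKM with control medium (-3.81 ± 0.29 SE, adjusted p = 7.8e-08).

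Among 22 cell cycle exit genes 15 rose, 3 fell and 4 were not called. Mxd1, a partner of Max that opposes Myc, had 228, 181 and 187 FPKM in differentiation libraries and 16.8, 9.08 and 29.8 FPKM in control libraries. All differentiation values were above the highest control value (3.49 ± 0.30 SE, adjusted p = 2.2e-07). Klf4, a transcription factor of mature surface and goblet cells, had 256, 325 and 278 FPKM in differentiation libraries, against 34.97, 49.8 and 34.4 FPKM in control libraries (2.83 ± 0.24 SE, adjusted p = 2.5e-07). Cdkn1a, the cyclin-dependent kinase inhibitor p21, had 386, 259.6 and 229 FPKM with differentiation medium, against 63.7, 65.4 and 59.7 FPKM with control medium (2.16 ± 0.17 SE, adjusted p = 1.1e-07). The inhibitor gene Cdkn1c had 15.4, 14.6 and 15.1 FPKM in differentiation libraries and 2.005, 6.59 and 4.86 FPKM in control libraries (1.65 ± 0.31 SE, adjusted p = 3.0e-04). Against the rest of the list, the INK4 inhibitor gene Cdkn2c fell, with 0.690, 0.563 and 1.13 FPKM in differentiation libraries, against 3.25, 3.90 and 3.42 FPKM in control libraries (-1.34 ± 0.21 SE, adjusted p = 6.8e-05), and E2f4, a repressor member of the E2F family, fell by a smaller step (-0.58 ± 0.11 SE, adjusted p = 3.7e-04). Ccng1 also passed as lower, but its libraries overlapped and its adjusted p was 0.053 with the replicate number as a block.

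Surface colonocyte genes rose. Of 23 measured genes 21 rose, none fell and 2 were not called, with a median of 3.81. Of the 21 that reached 1 FPKM in both media 19 rose, with a median of 3.49. Car4 reached it in differentiation libraries only. Aqp8, a water and hydrogen peroxide channel of surface colonocytes, had 6377, 3297 and 2595 FPKM with differentiation medium, against 12.4, 6.56 and 11.5 FPKM with control medium. The lowest differentiation value lay far above the highest control value (8.46 ± 0.32 SE, adjusted p = 5.5e-11). Slc26a3, the chloride and bicarbonate exchanger, had 538, 661 and 467 FPKM in differentiation libraries and 6.96, 27.2 and 1.40 FPKM in control libraries. Its control libraries spread widely, with library 2 highest, and the groups stayed apart (6.08 ± 0.63 SE, adjusted p = 1.4e-06). Car4, the carbonic anhydrase anchored at the cell surface, had 311, 197 and 198 FPKM in differentiation libraries, against 0.501, 0.900 and 0.626 FPKM in control libraries (7.11 ± 0.28 SE, adjusted p = 8.9e-11). Cyp2c55, a cytochrome P450 that is abundant in mouse colon, had 2969, 4232 and 3615 FPKM with differentiation medium, against 35.9, 56.01 and 11.05 FPKM with control medium (6.92 ± 0.55 SE, adjusted p = 1.1e-07). The keratin of surface cells, Krt20, had 848, 544 and 577 FPKM in differentiation libraries and 21.8, 6.82 and 60.1 FPKM in control libraries (4.86 ± 0.51 SE, adjusted p = 1.5e-06). Guca2a, the peptide guanylin, had 289, 436 and 277 FPKM in differentiation libraries, against 9.95, 6.68 and 5.74 FPKM in control libraries (5.31 ± 0.31 SE, adjusted p = 5.7e-09), while Car1, a cytosolic carbonic anhydrase, was abundant in both media, with 13862, 10898 and 13564 FPKM with differentiation medium, against 2105, 1535 and 1258 FPKM with control medium (2.99 ± 0.42 SE, adjusted p = 2.2e-05).

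**Figure D2:**
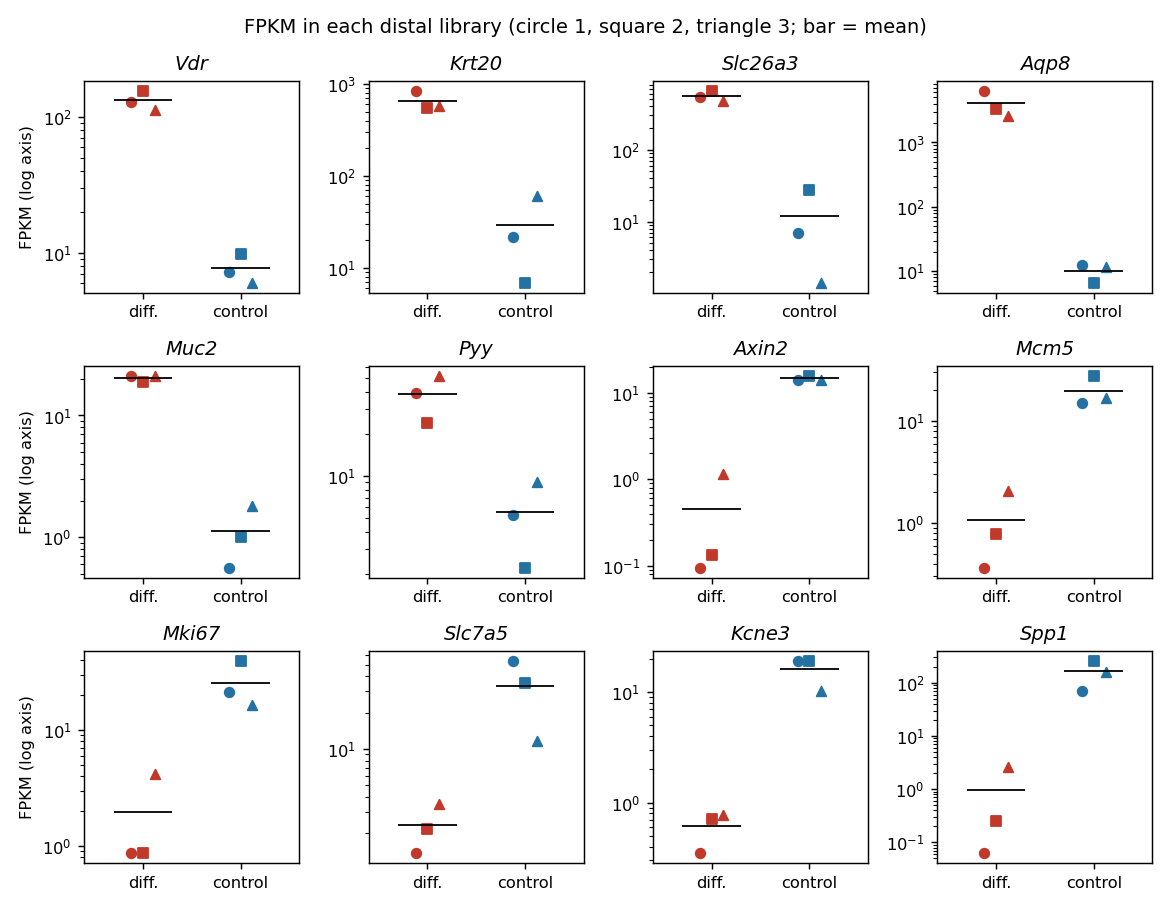
Each panel plots the FPKM of 1 gene on a log axis for the 3 differentiation libraries on the left and the 3 control libraries on the right, with a symbol for each replicate number and a bar at the mean. The libraries of the 2 media do not overlap in any of the 12 panels; Vdr, Krt20, Slc26a3, Aqp8, Muc2 and Pyy are higher and Axin2, Mcm5, Mki67, Slc7a5, Kcne3 and Spp1 lower in differentiation medium.

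The promoter windows of surface colonocyte genes were comparatively poor in G and C. Among 23 windows of 19 genes the median content of G and C was 52%, with 4 CpG pairs, against 61% and 21 over all windows of tested genes. The TATA letters (TATAAA, both strands) were in 6 windows (26.1%), against 7.11% of all tested windows and 13.6% of all RefSeq windows. Letters of the CDX site (CAATAAA and CCATAAA, both strands) were in 5 (21.7%), against 4.06% of tested windows and 7.2% of all RefSeq windows. In all tested windows 12 motifs were searched. Letters of AP-1 were in 4 windows of this list (17.4%), against 4.01% of tested windows, and those of TEAD in 6 (26.1%), against 11.9%. No window of this list held the letters of HNF4, TCF/LEF or SMAD, whose shares of tested windows were 0.721%, 2.35% and 0.244%. At such low shares, absence from 23 windows says little. The remaining motifs were above their share of tested windows. These shares were computed after the expression values were known and carry no test. The 180 bases before the start of 3 of these genes are shown because each holds the TATA letters, in capitals, at nearly the same place, 30 bases before the start in Slc26a3 (chr12:31438039-31438218, plus strand) and 29 in Krt20 (chr11:99438154-99438333, minus strand) and Cyp2c55 (chr19:39006839-39007018, plus strand).
Slc26a3: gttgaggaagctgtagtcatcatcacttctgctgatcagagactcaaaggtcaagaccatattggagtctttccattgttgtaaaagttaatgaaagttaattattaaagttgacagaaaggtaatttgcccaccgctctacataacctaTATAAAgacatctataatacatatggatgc
Krt20: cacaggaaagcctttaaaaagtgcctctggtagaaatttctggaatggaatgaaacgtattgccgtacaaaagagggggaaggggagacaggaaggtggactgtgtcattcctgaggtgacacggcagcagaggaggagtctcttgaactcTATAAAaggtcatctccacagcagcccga
Cyp2c55: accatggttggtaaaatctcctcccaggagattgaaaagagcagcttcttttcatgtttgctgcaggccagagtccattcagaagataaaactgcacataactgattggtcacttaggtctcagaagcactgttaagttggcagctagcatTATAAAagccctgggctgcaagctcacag

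Genes of the brush border, the layer of microvilli on absorptive cells, rose as well. Of 25 measured genes 24 rose and 1 fell, with a median of 2.15. Of the 20 that reached 1 FPKM in both media 19 rose. Mep1a and Mep1b encode the subunits of meprin, a surface protease. Mep1a had 169, 174 and 106 FPKM in differentiation libraries and 5.76, 8.36 and 3.27 FPKM in control libraries (4.51 ± 0.30 SE, adjusted p = 1.8e-08). Mep1b had 284, 278 and 217 FPKM in differentiation libraries, against 23.2, 11.7 and 6.99 FPKM in control libraries (4.26 ± 0.30 SE, adjusted p = 3.2e-08). Both rose in step, with every differentiation value above every control value. Cdhr5, a protocadherin that links the tips of microvilli, had 492, 434 and 394 FPKM with differentiation medium, against 40.7, 41.4 and 49.3 FPKM with control medium (3.30 ± 0.19 SE, adjusted p = 4.6e-09). The motor of the microvillus, Myo1a, had 359, 321 and 210.3 FPKM in differentiation libraries and 51.2, 22.2 and 24.1 FPKM in control libraries (3.22 ± 0.30 SE, adjusted p = 4.7e-07). Dpep1, a dipeptidase, spread widely over the differentiation libraries, with 55.1, 22.3 and 8.12 FPKM in differentiation libraries, against 0.317, 0.154 and 0.0900 FPKM in control libraries (4.27 ± 0.47 SE, adjusted p = 2.4e-06), and differentiation library 1 was the highest of its medium in 22 of the 25 genes. Baiap2l2 fell, with 3.96, 5.85 and 3.37 FPKM with differentiation medium, against 18.5, 13.96 and 10.5 FPKM with control medium (-1.50 ± 0.27 SE, adjusted p = 1.9e-04).

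Ion and water transporters divided by role. Of 26 measured genes 16 rose, 6 fell and 4 were not called. The 6 that fell are Aqp4 and genes known from chloride secretion: the chloride channel Cftr, the chloride loader Slc12a2 and the potassium channel genes Kcnq1, Kcne3 and Kcnn4. Slc9a3, the sodium and proton exchanger NHE3, had 43.1, 28.4 and 22.8 FPKM in differentiation libraries and 0.295, 0.226 and 2.14 FPKM in control libraries (4.20 ± 0.32 SE, adjusted p = 8.0e-08). Atp12a, the colonic proton and potassium pump, had 676, 165 and 175 FPKM in differentiation libraries, against 9.98, 6.63 and 2.21 FPKM in control libraries (5.39 ± 0.47 SE, adjusted p = 2.9e-07). Slc26a2, a sulfate transporter, had 321, 316 and 243 FPKM with differentiation medium, against 18.96, 29.9 and 12.1 FPKM with control medium (3.86 ± 0.26 SE, adjusted p = 1.6e-08). All 3 were higher in every differentiation library than in any control. Slc12a2 had 10.7, 15.2 and 28.3 FPKM in differentiation libraries and 106, 113 and 94.2 FPKM in control libraries (-2.57 ± 0.29 SE, adjusted p = 3.4e-06). Kcne3, the subunit that keeps the potassium channel of secreting cells open, had 0.347, 0.714 and 0.773 FPKM in differentiation libraries, against 19.2, 18.97 and 10.3 FPKM in control libraries (-3.37 ± 0.53 SE, adjusted p = 5.5e-05). Its partner Kcnq1 had 8.13, 5.80 and 8.04 FPKM with differentiation medium, against 28.5, 22.9 and 25.5 FPKM with control medium (-1.69 ± 0.13 SE, adjusted p = 1.1e-07). These fell without overlap, though Kcne3 passed the filter through control libraries alone. Cftr passed the test as lower (-1.42 ± 0.39 SE, adjusted p = 0.0045) although its groups overlapped, at 0.239, 0.304 and 1.79 FPKM in differentiation libraries and 5.09, 1.38 and 4.93 FPKM in control libraries. The water channel Aqp4 fell, with 1.95, 16.7 and 5.68 FPKM in differentiation libraries, against 63.3, 48.4 and 18.6 FPKM in control libraries (-2.49 ± 0.53 SE, adjusted p = 7.6e-04), against the rise of Aqp8. Of 20 tight and adherens junction genes 14 rose and 1 fell; scaled to summed reads these counts were 8 and 5. Cldn2, a claudin that lets cations and water through, was the 1 that fell, with 0.155, 0.145 and 1.24 FPKM with differentiation medium, against 5.94, 7.65 and 7.67 FPKM with control medium (-2.49 ± 0.38 SE, adjusted p = 4.9e-05), while Cldn23 had 72.5, 32.5 and 41.3 FPKM in differentiation libraries and 9.25, 5.56 and 18.6 FPKM in control libraries (2.10 ± 0.38 SE, adjusted p = 2.0e-04) and the adhesion protein Cdh17 739.7, 372 and 371 FPKM in differentiation libraries, against 125, 96.2 and 109.6 FPKM in control libraries (2.08 ± 0.24 SE, adjusted p = 3.2e-06).

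Detoxification genes rose with the colonocyte genes. Of 32 measured xenobiotic genes 24 rose, 1 fell and 7 were not called, with a median of 2.78. Of the 30 that reached 1 FPKM in both media 22 rose and 1 fell. The carboxylesterase Ces2a had 1082, 912 and 674 FPKM with differentiation medium, against 2.09, 2.61 and 1.49 FPKM with control medium (8.17 ± 0.27 SE, adjusted p = 2.7e-11), and Ces2c had 482, 304 and 184 FPKM in differentiation libraries and 4.35, 4.95 and 2.60 FPKM in control libraries (5.95 ± 0.41 SE, adjusted p = 2.7e-08). Members of the Ces2 and Cyp2c families have close copies, between which the authors' counting could split reads. Cyp4f14, a fatty acid and eicosanoid hydroxylase, had 455, 549 and 317 FPKM in differentiation libraries, against 2.48, 3.30 and 1.04 FPKM in control libraries (7.10 ± 0.34 SE, adjusted p = 8.7e-10). Cyp3a13 had 203, 145 and 85.8 FPKM with differentiation medium, against 4.86, 2.49 and 3.71 FPKM with control medium (4.90 ± 0.29 SE, adjusted p = 5.3e-09). In each of the 4 the differentiation libraries all lay above the controls, and control library 3 was the lowest control in 25 of the 32 genes of the list.

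**Figure D3:**
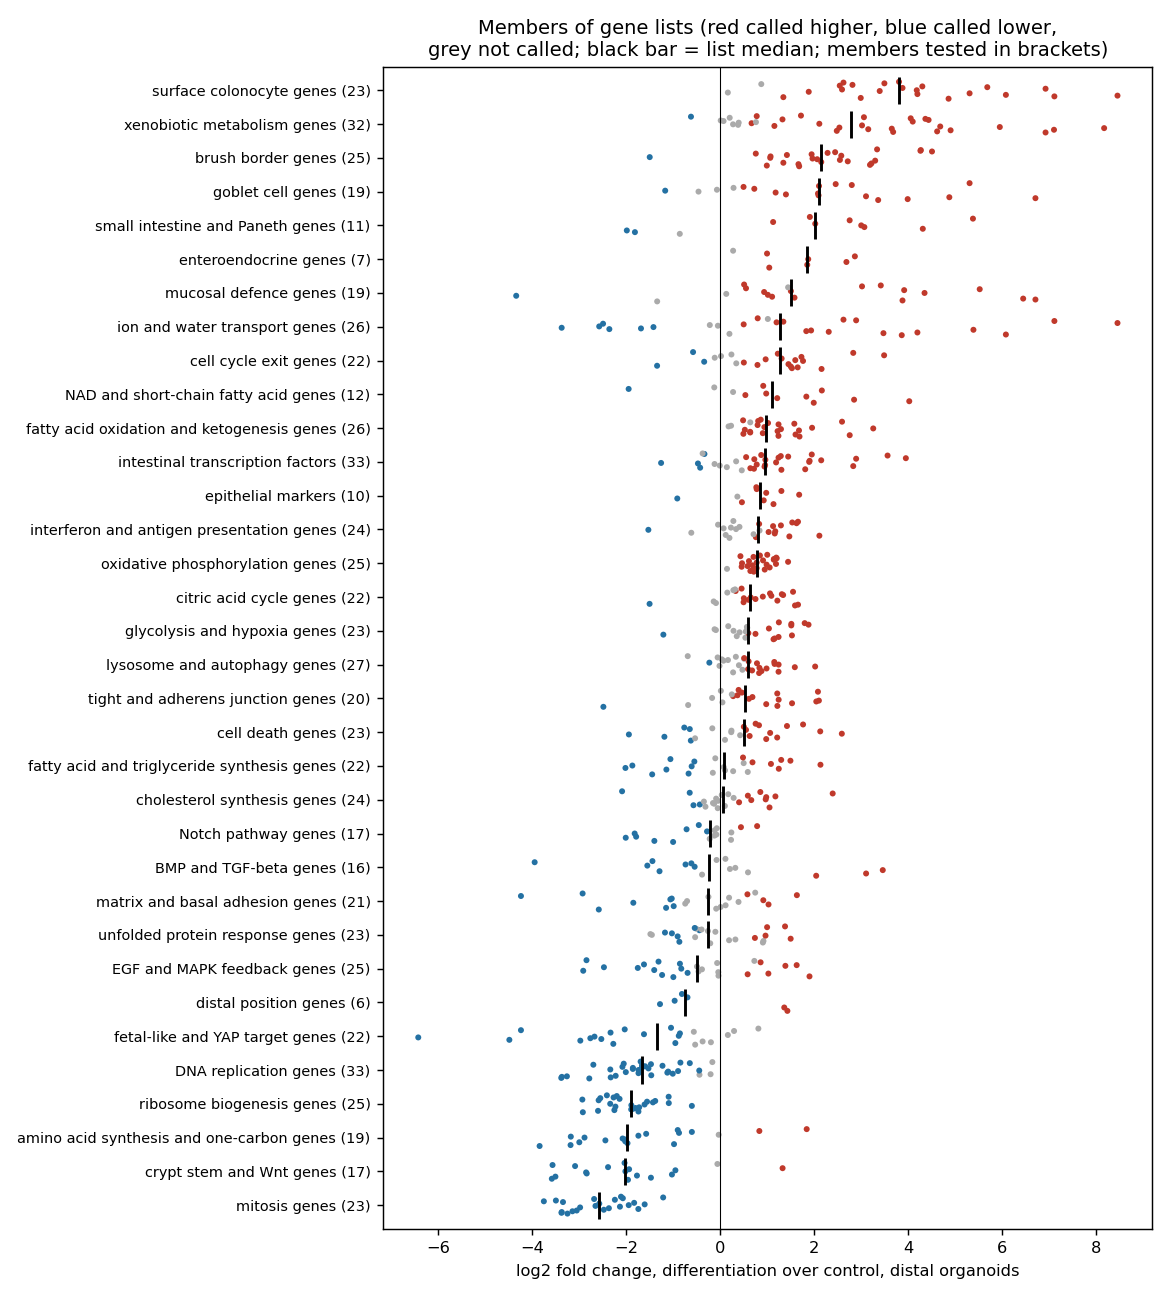
Each row is a gene list, with the number of members tested in brackets, and each point is the log2 fold change of 1 member, differentiation over control, in red where called higher, blue where called lower and grey where not called; the black bar is the median of the list. Surface colonocyte (median 3.81) and xenobiotic genes (2.78) lie farthest to the right, and mitosis (-2.57) and crypt genes (-2.02) farthest to the left.

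Secretory cell genes rose too, though less evenly. Of 19 goblet cell genes 15 rose, 1 fell and 3 were not called, and scaled to summed reads 13 rose and 3 fell. Muc2, the gel-forming mucin, had 21.04, 18.8 and 21.2 FPKM in differentiation libraries and 0.559, 1.02 and 1.82 FPKM in control libraries (3.36 ± 0.36 SE, adjusted p = 1.6e-06). Clca1, a secreted mucus protein, had 434, 293 and 409 FPKM in differentiation libraries, against 17.7, 6.19 and 14.4 FPKM in control libraries (4.88 ± 0.49 SE, adjusted p = 9.6e-07). The mucus protein gene Fcgbp had 81.7, 108 and 93.4 FPKM with differentiation medium, against 7.15, 3.79 and 4.43 FPKM with control medium (3.99 ± 0.31 SE, adjusted p = 7.9e-08), and Tff3, a trefoil peptide, had 803, 921 and 692 FPKM in differentiation libraries and 111, 103 and 68.4 FPKM in control libraries (3.10 ± 0.36 SE, adjusted p = 3.5e-06). None of these groups overlapped. Atoh1, the factor that starts the secretory fate, rose by a smaller step, with 5.003, 7.18 and 5.39 FPKM in differentiation libraries, against 3.11, 2.37 and 0.949 FPKM in control libraries (1.18 ± 0.32 SE, adjusted p = 0.0041), and the forkhead factor gene Foxa3 fell, with 5.66, 7.15 and 5.93 FPKM with differentiation medium, against 15.1, 15.8 and 14.9 FPKM with control medium (-1.17 ± 0.13 SE, adjusted p = 3.5e-06). Of 23 enteroendocrine genes only 7 passed the filter on low values. Insl5 and Scg2 passed it through differentiation libraries alone, and of the other 5 genes 4 rose. Pyy, a peptide hormone of L cells, had 39.3, 24.05 and 51.8 FPKM in differentiation libraries and 5.23, 2.20 and 9.04 FPKM in control libraries (2.69 ± 0.37 SE, adjusted p = 1.8e-05). Tac1, which encodes substance P, had 6.33, 18.2 and 12.3 FPKM in differentiation libraries, against 1.38, 0.703 and 0.197 FPKM in control libraries (2.87 ± 0.32 SE, adjusted p = 2.4e-06), and Chga, the granule protein chromogranin A, stayed low, with 2.39, 1.996 and 3.70 FPKM with differentiation medium, against 0.429, 0.642 and 1.32 FPKM with control medium (1.04 ± 0.26 SE, adjusted p = 0.0026). Of 17 tuft cell genes 16 did not pass the filter, and the 1 that did, Ptgs1, passed it through control libraries alone, with 0.186, 0.0623 and 0.335 FPKM in differentiation libraries and 2.95, 3.25 and 1.21 FPKM in control libraries. Of 11 small intestine and Paneth cell genes tested, 7 reached 1 FPKM in both media, and 6 of those rose. Rbp2, a retinol carrier of enterocytes, had 75.2, 85.4 and 73.9 FPKM in differentiation libraries, against 0.410, 0.596 and 2.03 FPKM in control libraries (5.38 ± 0.31 SE, adjusted p = 5.1e-09), and Alpi, intestinal alkaline phosphatase, had 88.7, 37.04 and 47.5 FPKM with differentiation medium, against 1.26, 1.45 and 2.80 FPKM with control medium (4.31 ± 0.43 SE, adjusted p = 9.1e-07). The antimicrobial ribonuclease gene Ang4 had 0.726, 0.341 and 0.204 FPKM in differentiation libraries and 3.54, 1.89 and 12.2 FPKM in control libraries (-1.99 ± 0.40 SE, adjusted p = 4.5e-04).

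Genes of fuel oxidation rose together by moderate steps. Of 26 fatty acid oxidation genes 23 rose and none fell, with a median of 0.98, and scaled to summed reads 16 rose and none fell, with a median of 0.54. Cpt1a, which admits fatty acids into mitochondria, had 40.8, 61.6 and 50.3 FPKM in differentiation libraries, against 14.5, 15.96 and 14.3 FPKM in control libraries (1.69 ± 0.16 SE, adjusted p = 5.1e-07). The libraries of the 2 media did not overlap. Of 25 oxidative phosphorylation genes 24 rose, with a median of 0.78, and scaled to summed reads 13 did. Uqcrfs1, the iron and sulfur subunit of complex III, had 417, 263 and 187 FPKM with differentiation medium, against 101, 112 and 88.3 FPKM with control medium (1.45 ± 0.22 SE, adjusted p = 3.8e-05). Within differentiation medium library 1 was highest in 23 of the 25 and library 3 lowest in all 25. Of 13 mitochondrially encoded genes tested 12 rose. Of 22 citric acid cycle genes 16 rose and 1 fell, and scaled to summed reads 9 rose and 2 fell. Cs, citrate synthase, had 266, 150.4 and 109.7 FPKM in differentiation libraries and 58.4, 52.9 and 49.99 FPKM in control libraries (1.59 ± 0.22 SE, adjusted p = 2.1e-05). Idh2, the NADP-linked isocitrate dehydrogenase, was the exception, with 17.95, 14.2 and 11.2 FPKM in differentiation libraries, against 40.95, 48.1 and 37.9 FPKM in control libraries (-1.50 ± 0.24 SE, adjusted p = 6.7e-05).

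Of 23 glycolysis and hypoxia genes 12 rose and 1 fell, and scaled to summed reads 8 rose and 3 fell. Egln3, an oxygen sensor induced by low oxygen, had 665, 296 and 266 FPKM with differentiation medium, against 117, 83.4 and 105 FPKM with control medium (1.88 ± 0.48 SE, adjusted p = 0.0028). Differentiation library 1 was far above the other two here, and the highest of its medium in 22 of the 23 genes. Ldha, lactate dehydrogenase A, had 1497, 1048 and 869 FPKM in differentiation libraries and 522, 574 and 524 FPKM in control libraries (1.04 ± 0.23 SE, adjusted p = 0.0012). Pfkfb3, which makes the activator of glycolysis fructose 2,6-bisphosphate, fell, with 5.23, 5.64 and 5.37 FPKM in differentiation libraries, against 11.2, 16.5 and 14.2 FPKM in control libraries (-1.21 ± 0.29 SE, adjusted p = 0.0020). The NAD and short-chain fatty acid genes were mostly higher, 9 of 12 rising and 1 falling. Of the 10 that reached 1 FPKM in both media 8 rose and 1 fell, and Slc5a8 reached it in differentiation libraries only. Slc5a8, a transporter of butyrate and nicotinate, had 22.98, 46.98 and 15.04 FPKM with differentiation medium, against 0.360, 0.861 and 0.692 FPKM with control medium (4.02 ± 0.34 SE, adjusted p = 2.0e-07). Naprt, the enzyme that turns nicotinic acid into the NAD pathway, had 60.3, 34.97 and 26.5 FPKM in differentiation libraries and 6.56, 3.79 and 3.46 FPKM in control libraries (2.85 ± 0.30 SE, adjusted p = 1.4e-06). Nadsyn1, the NAD synthetase of the same route, had 27.1, 22.5 and 15.4 FPKM in differentiation libraries, against 5.62, 4.87 and 5.13 FPKM in control libraries (1.83 ± 0.16 SE, adjusted p = 3.0e-07). Cd38, which consumes NAD, had 127, 97.5 and 80.5 FPKM with differentiation medium, against 30.95, 22.5 and 14.2 FPKM with control medium (2.16 ± 0.28 SE, adjusted p = 9.1e-06), while Parp1, which consumes it in DNA repair, fell, with 2.59, 3.68 and 3.68 FPKM in differentiation libraries and 16.8, 18.1 and 12.2 FPKM in control libraries (-1.95 ± 0.35 SE, adjusted p = 1.6e-04).

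Lipid synthesis did not move one way. Of 22 fatty acid and triglyceride synthesis genes 7 rose and 8 fell, and scaled to summed reads 4 rose and 9 fell. Dgat1, which makes triglyceride, had 46.4, 37.98 and 29.4 FPKM in differentiation libraries, against 6.62, 7.87 and 8.82 FPKM in control libraries (2.13 ± 0.16 SE, adjusted p = 5.8e-08). Fasn, fatty acid synthase, had 18.03, 20.5 and 27.1 FPKM with differentiation medium, against 55.5, 68.3 and 58.3 FPKM with control medium (-1.45 ± 0.18 SE, adjusted p = 8.0e-06), and the desaturase gene Fads1 had 0.193, 0.402 and 0.812 FPKM in differentiation libraries and 4.61, 5.76 and 4.29 FPKM in control libraries (-2.02 ± 0.30 SE, adjusted p = 4.1e-05). Acaca, which makes the building block for Fasn, had 2.87, 4.23 and 3.87 FPKM in differentiation libraries, against 6.18, 6.90 and 6.02 FPKM in control libraries (-0.67 ± 0.13 SE, adjusted p = 4.0e-04). Dgat1 was higher and the other 3 lower in every differentiation library than in any control, though Fads1 passed the filter through control libraries alone. Of 24 cholesterol genes 9 rose, 4 fell and 11 were not called, against 33.6% higher and 32.6% lower over all genes. Scaled to summed reads 4 rose and 12 fell, where 2260 of all 11604 genes were called higher and 5749 lower. Insig1, which holds back cholesterol synthesis, had 443, 157 and 148 FPKM with differentiation medium, against 36.6, 41.5 and 44.1 FPKM with control medium (2.39 ± 0.36 SE, adjusted p = 3.9e-05). Hmgcs1, an early enzyme of the pathway, had 138, 108 and 108 FPKM in differentiation libraries and 58.8, 48.9 and 61.6 FPKM in control libraries (1.05 ± 0.15 SE, adjusted p = 2.3e-05).

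In the BMP and TGF-beta, Notch and EGF lists more genes fell than rose, by small steps. Their medians were -0.23, -0.22 and -0.49, against 0.02 over all genes. Over all 11604 genes 32.6% were called lower, and 5749 when scaled to summed reads, so the falls under that scaling are to be read against a high share. Of 16 BMP and TGF-beta genes 3 rose, 7 fell and 6 were not called, and scaled to summed reads 3 rose and 9 fell. The ligand Bmp2 had 122, 85.9 and 77.02 FPKM in differentiation libraries, against 7.43, 6.64 and 8.70 FPKM in control libraries (3.46 ± 0.35 SE, adjusted p = 1.2e-06), and its target genes Id1 and Id3 rose with it. Id1 had 114, 123 and 124 FPKM with differentiation medium, against 28.95, 22.9 and 34.5 FPKM with control medium (2.04 ± 0.17 SE, adjusted p = 2.0e-07). Id3 had 7.02, 15.5 and 11.1 FPKM in differentiation libraries and 0.220, 0.213 and 0.687 FPKM in control libraries (3.11 ± 0.23 SE, adjusted p = 5.1e-08). The TGF-beta target Pmepa1 fell, with 0.713, 1.07 and 5.27 FPKM in differentiation libraries, against 35.8, 27.3 and 77.4 FPKM in control libraries (-3.95 ± 0.44 SE, adjusted p = 2.4e-06), as did the ligand Tgfb1 (-1.55 ± 0.22 SE, adjusted p = 2.1e-05). Of 17 Notch genes 2 rose and 8 fell, or 1 and 12 scaled to summed reads, with the ligands Jag1 and Jag2 and the receptors Notch1 and Notch2 among those that fell. Jag1 had 0.831, 1.45 and 2.40 FPKM with differentiation medium, against 7.36, 6.31 and 15.3 FPKM with control medium (-2.01 ± 0.29 SE, adjusted p = 2.6e-05), and Notch2 had 0.650, 0.964 and 2.03 FPKM in differentiation libraries and 3.77, 3.91 and 6.71 FPKM in control libraries (-1.40 ± 0.23 SE, adjusted p = 7.3e-05). Hes1, the main target of Notch in the gut, overlapped between media at 37.9, 25.3 and 27.7 FPKM in differentiation libraries, against 30.8, 31.7 and 35.3 FPKM in control libraries and was not called (-0.12 ± 0.13 SE, adjusted p = 0.40); scaled to summed reads it was called lower at -0.57. Of 25 EGF and MAPK feedback genes 6 rose and 12 fell, or 5 and 15 scaled to summed reads. The receptor gene Erbb2 rose by 1.39 ± 0.18 (SE, adjusted p = 1.3e-05) and its partner Erbb3 by 1.63 ± 0.17 (SE, adjusted p = 1.5e-06). Etv4, a transcription factor induced by ERK signalling, fell, with 1.13, 0.370 and 1.31 FPKM with differentiation medium, against 11.6, 12.2 and 16.2 FPKM with control medium (-2.91 ± 0.27 SE, adjusted p = 4.8e-07), as did the cyclin gene Ccnd1, with 9.28, 14.7 and 60.6 FPKM in differentiation libraries and 135, 181 and 148 FPKM in control libraries (-2.85 ± 0.50 SE, adjusted p = 1.5e-04).

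Fetal-like and YAP target genes fell, while matrix genes were mixed. Of 22 fetal-like and YAP target genes 15 fell, none rose and 7 were not called, with a median of -1.33, and scaled to summed reads 18 fell. Spp1, the secreted matrix protein osteopontin, had 0.0625, 0.257 and 2.59 FPKM in differentiation libraries, against 71.4, 257 and 162 FPKM in control libraries. Every differentiation value was far below every control value, with library 3 the highest of the low ones (-6.42 ± 0.45 SE, adjusted p = 3.0e-08). Ccn2, a YAP target and matrix protein, had 4.54, 2.98 and 13.9 FPKM with differentiation medium, against 135, 84.98 and 316 FPKM with control medium (-4.49 ± 0.58 SE, adjusted p = 1.0e-05). Il33, an alarm cytokine, had 0.678, 0.963 and 9.38 FPKM in differentiation libraries and 22.6, 27.9 and 14.7 FPKM in control libraries (-2.76 ± 0.50 SE, adjusted p = 2.0e-04). Library 3 was the highest of the differentiation libraries in 19 of the 22 genes. Of 21 matrix and basal adhesion genes 4 rose, 8 fell and 9 were not called, and scaled to summed reads 2 rose and 11 fell. Of the 19 that reached 1 FPKM in both media 4 rose and 6 fell, against 3607 and 3323 of all 10839 such genes. Fibronectin (Fn1) had 1.71, 1.29 and 2.75 FPKM in differentiation libraries, against 30.02, 14.7 and 321 FPKM in control libraries. Control library 3 was far above the other two controls, which still lay above all differentiation libraries. The log2 fold change was -4.24 ± 0.91 (SE, adjusted p = 7.9e-04), and -2.95 without control library 3. Itga2, a collagen receptor subunit, had 3.22, 4.32 and 8.68 FPKM with differentiation medium, against 34.96, 22.4 and 54.7 FPKM with control medium (-2.58 ± 0.34 SE, adjusted p = 1.2e-05), and Dst, the cytoskeletal linker dystonin, rose, with 6.84, 7.54 and 7.31 FPKM in differentiation libraries and 1.44, 1.31 and 2.30 FPKM in control libraries (1.63 ± 0.14 SE, adjusted p = 2.2e-07). Tnfrsf11b, the decoy receptor osteoprotegerin, fell, with 1.24, 2.38 and 4.31 FPKM in differentiation libraries, against 82.4, 28.2 and 126 FPKM in control libraries (-4.30 ± 0.44 SE, adjusted p = 1.2e-06), and so did Nox1, the superoxide-making oxidase of the colon, with 0.0935, 0.347 and 0.810 FPKM with differentiation medium, against 25.6, 35.4 and 21.9 FPKM with control medium (-4.34 ± 0.33 SE, adjusted p = 7.9e-08). Nox1 passed the filter through control libraries alone.

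Other genes among the 12 largest rises or falls belong to no list. The sugar phosphate exchanger gene Slc37a2 had 119.7, 327 and 171 FPKM in differentiation libraries and 1.13, 4.70 and 0.219 FPKM in control libraries (6.27 ± 0.41 SE, adjusted p = 1.4e-08), and the serine protease gene Prss30 had 151, 69.2 and 56.9 FPKM in differentiation libraries, against 0.446, 0.0394 and 0.115 FPKM in control libraries (6.16 ± 0.35 SE, adjusted p = 4.5e-09). The gene 1810065E05Rik had 956, 366 and 180.2 FPKM with differentiation medium, against 4.47, 2.99 and 0.483 FPKM with control medium (6.97 ± 0.67 SE, adjusted p = 7.3e-07). Its differentiation values spanned a wide range, with library 1 highest. On the falling side, the keratin gene Krt90 had 0.650, 0.716 and 0.914 FPKM in differentiation libraries and 24.4, 25.8 and 22.9 FPKM in control libraries (-3.85 ± 0.26 SE, adjusted p = 2.4e-08). Slc4a11, a membrane transporter, had 0.680, 0.810 and 3.33 FPKM in differentiation libraries, against 24.7, 22.6 and 63.7 FPKM in control libraries (-3.85 ± 0.41 SE, adjusted p = 1.9e-06), and Pkp1, a desmosome protein, had 1.68, 1.52 and 2.22 FPKM with differentiation medium, against 43.6, 21.7 and 43.3 FPKM with control medium (-3.67 ± 0.22 SE, adjusted p = 7.3e-09). Absence of overlap between media was a condition for entering these largest rises and falls. Prss30 passed the filter through differentiation libraries alone and Krt90 through control libraries alone.

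Mucosal defence genes rose, 15 of 19, with 1 fall and 3 not called, or 12 and 2 when scaled to summed reads. Pigr, the receptor that carries IgA into the lumen, had 786, 619 and 343 FPKM in differentiation libraries and 28.5, 29.1 and 21.3 FPKM in control libraries (4.35 ± 0.38 SE, adjusted p = 2.8e-07). Zg16, a lectin of mucus that binds bacteria, had 709, 395 and 359.7 FPKM in differentiation libraries, against 4.11, 1.14 and 7.07 FPKM in control libraries (6.71 ± 0.54 SE, adjusted p = 1.1e-07), and Saa1, serum amyloid A, had 664, 267 and 252 FPKM with differentiation medium, against 1.41, 2.72 and 6.55 FPKM with control medium (6.45 ± 0.50 SE, adjusted p = 7.9e-08). Differentiation library 1 was the highest in all 3. Tgm3, a transglutaminase, had 456, 312 and 227 FPKM in differentiation libraries and 13.5, 4.01 and 3.61 FPKM in control libraries (5.52 ± 0.34 SE, adjusted p = 7.7e-09), and Dmbt1, a secreted scavenger receptor, had 996, 600.4 and 589.95 FPKM in differentiation libraries, against 44.4, 36.4 and 59.8 FPKM in control libraries (3.92 ± 0.49 SE, adjusted p = 7.2e-06). Of 24 interferon and antigen presentation genes 12 rose, 1 fell and 11 were not called, with 10 and 3 when scaled to summed reads. The class I genes H2-K1 and B2m moved together. H2-K1 had 550.5, 495 and 467 FPKM with differentiation medium, against 173, 135 and 172 FPKM with control medium (1.66 ± 0.19 SE, adjusted p = 3.3e-06), and B2m had 627, 274 and 220.4 FPKM in differentiation libraries and 123, 82.03 and 126 FPKM in control libraries (1.63 ± 0.33 SE, adjusted p = 4.5e-04). Irf7, a transcription factor induced by interferon, had 28.4, 16.6 and 23.2 FPKM in differentiation libraries, against 8.95, 1.29 and 5.81 FPKM in control libraries (2.11 ± 0.46 SE, adjusted p = 9.3e-04). Control library 2 was the lowest control in 21 of the 24 genes. The membrane protein gene Bst2 fell, with 5.59, 5.49 and 4.65 FPKM with differentiation medium, against 24.2, 13.3 and 15.1 FPKM with control medium (-1.53 ± 0.21 SE, adjusted p = 1.7e-05).

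Of 27 lysosome and autophagy genes 15 rose and 1 fell, and scaled to summed reads 10 rose and 5 fell. Neu1, a lysosomal sialidase, had 175, 130.2 and 127 FPKM in differentiation libraries and 34.4, 41.3 and 28.3 FPKM in control libraries (2.02 ± 0.25 SE, adjusted p = 6.0e-06). The unfolded protein response list was divided, with 5 rising, 6 falling and 12 not called of 23, and 3 rising against 12 falling when scaled to summed reads. Edem1, which sends misfolded proteins to decay, had 52.9, 35.4 and 29.995 FPKM in differentiation libraries, against 16.5, 11.9 and 14.3 FPKM in control libraries (1.38 ± 0.17 SE, adjusted p = 6.9e-06), and Pdia6, a disulfide isomerase, had 27.04, 21.2 and 22.1 FPKM with differentiation medium, against 96.4, 35.1 and 46.1 FPKM with control medium (-1.17 ± 0.31 SE, adjusted p = 0.0038), which was -0.76 without control library 1. Control library 1 was the highest control in 21 of these 23 genes. Of 23 cell death genes 12 rose and 5 fell, which turned to 6 and 7 when scaled to summed reads. Casp1, the caspase that activates interleukin 18, had 84.3, 94.97 and 77.6 FPKM in differentiation libraries and 16.5, 12.1 and 11.9 FPKM in control libraries (2.59 ± 0.13 SE, adjusted p = 1.7e-09). Bid and Bax, which open mitochondria in apoptosis, fell. Bid had 0.348, 1.52 and 3.26 FPKM in differentiation libraries, against 9.68, 6.62 and 9.08 FPKM in control libraries (-1.94 ± 0.32 SE, adjusted p = 9.2e-05), and Bax had 32.2, 35.6 and 51.4 FPKM with differentiation medium, against 88.997, 108 and 75.7 FPKM with control medium (-1.19 ± 0.18 SE, adjusted p = 4.8e-05).

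Transcription factors of the mature intestine were mostly higher. Of 33 measured factors 23 rose, 4 fell and 6 were not called, with a median of 0.94, and scaled to summed reads 17 rose and 8 fell. Vdr, the vitamin D receptor, had 129, 156 and 113 FPKM in differentiation libraries and 7.23, 9.82 and 6.01 FPKM in control libraries. All differentiation libraries were above all controls (3.95 ± 0.22 SE, adjusted p = 3.9e-09). Nr3c2, the mineralocorticoid receptor, which turns on sodium uptake, had 39.4, 37.3 and 32.2 FPKM in differentiation libraries, against 4.18, 3.48 and 4.40 FPKM in control libraries (2.89 ± 0.18 SE, adjusted p = 9.1e-09). Hnf4a, a main factor of enterocyte genes, had 495, 362 and 340.3 FPKM with differentiation medium, against 117, 119.7 and 99.3 FPKM with control medium (1.81 ± 0.20 SE, adjusted p = 2.8e-06). Creb3l3, a membrane-bound factor of lipid genes, had 17.8, 19.9 and 29.5 FPKM in differentiation libraries and 0.767, 0.364 and 2.003 FPKM in control libraries (3.56 ± 0.35 SE, adjusted p = 8.9e-07), and the bile acid receptor Nr1h4 (FXR) had 19.995, 20.1 and 12.6 FPKM in differentiation libraries, against 4.94, 5.04 and 0.923 FPKM in control libraries (2.15 ± 0.42 SE, adjusted p = 3.6e-04). Tcf7l2, the DNA-binding partner of beta-catenin, rose while the Wnt targets fell, with 14.4, 16.5 and 16.5 FPKM with differentiation medium, against 2.82, 3.42 and 3.84 FPKM with control medium (1.95 ± 0.14 SE, adjusted p = 3.8e-08). Cdx2, the factor of intestinal identity, had 51.99, 54.7 and 63.9 FPKM in differentiation libraries and 30.1, 27.3 and 13.5 FPKM in control libraries (1.30 ± 0.24 SE, adjusted p = 2.5e-04). Its relative Cdx1 overlapped between media, at 143, 143 and 108 FPKM in differentiation libraries, against 97.1, 115 and 74.8 FPKM in control libraries, and was not called (0.46 ± 0.24 SE, adjusted p = 0.11), though it was with the replicate number as a block (adjusted p = 0.047). Foxa2, a forkhead factor, fell, with 1.87, 2.88 and 2.14 FPKM with differentiation medium, against 7.88, 7.78 and 5.12 FPKM with control medium (-1.26 ± 0.22 SE, adjusted p = 1.3e-04). Klf5, a factor of dividing crypt cells, had 78.3, 109.7 and 100.1 FPKM in differentiation libraries and 87.9, 111 and 89.9 FPKM in control libraries and did not pass the test (-0.01 ± 0.15 SE, adjusted p = 0.96).

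**Figure D4:**
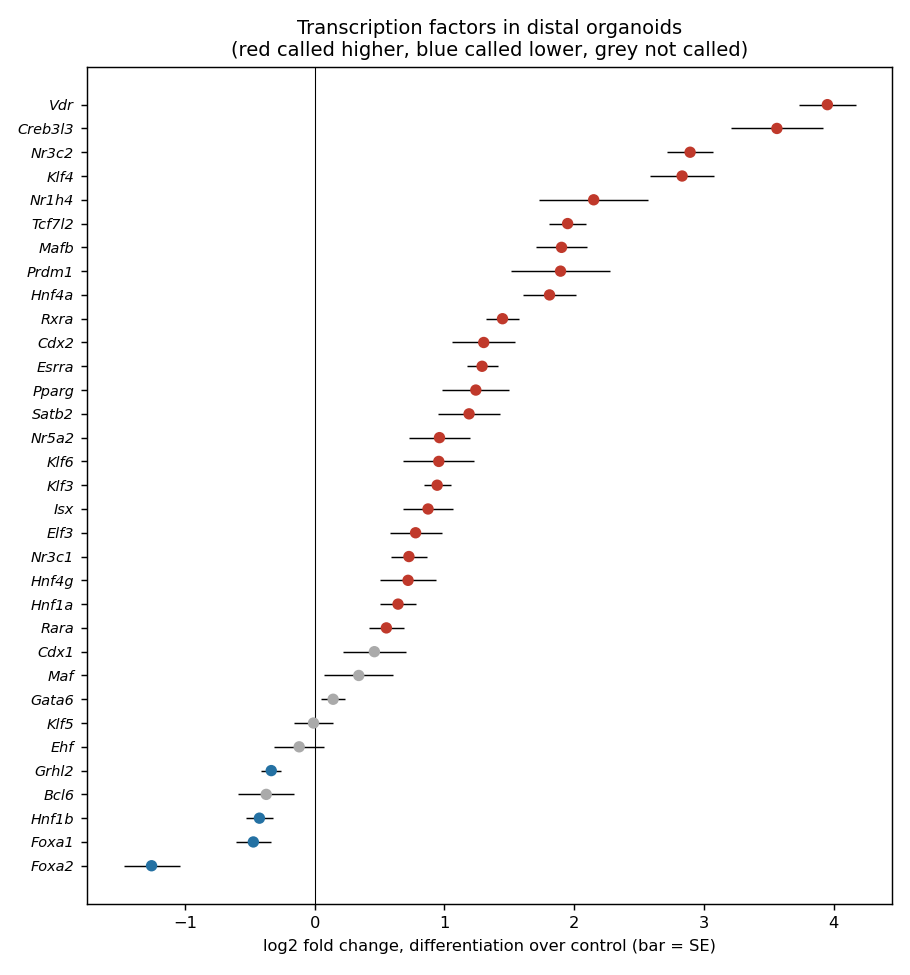
Log2 fold change, differentiation over control, of each of 33 transcription factor genes in distal organoids, with bars of 1 SE; red points were called higher, blue lower and grey not called. Vdr (3.95) and Creb3l3 (3.56) lie at the high end and Foxa2 (-1.26) at the low end.

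Position genes of the distal colon did not move as one. Of 6 tested 2 rose and 4 fell. Hoxb13 had 219, 193 and 132 FPKM in differentiation libraries and 61.4, 80.3 and 55.98 FPKM in control libraries (1.43 ± 0.17 SE, adjusted p = 5.2e-06) and Hoxa13 had 51.5, 54.6 and 50.1 FPKM in differentiation libraries, against 17.7, 22.7 and 18.7 FPKM in control libraries (1.36 ± 0.09 SE, adjusted p = 1.2e-08), both higher, while Hoxd13, given above, fell (-1.28 ± 0.17 SE, adjusted p = 1.0e-05), as did Hoxa10 (-0.81 ± 0.14 SE, adjusted p = 1.1e-04). Markers of other cell types mostly stayed under the filter. Of 12 fibroblast markers 11 did not pass the filter and 5 (Dcn, Col6a2, Col1a2, Thy1 and Lum) were at 0 reads in all 6 libraries. The 1 tested, Pdgfrb, had 11.9, 4.17 and 2.11 FPKM with differentiation medium, against 0.512, 0.131 and 0.0613 FPKM with control medium and passed the filter through differentiation libraries alone. The summed level of the 12 was 2.18 to 12.03 FPKM in differentiation libraries and 0.186 to 0.687 FPKM in control libraries, and Pdgfrb made up most of it in all 3 differentiation libraries. That of the other 11 was 0.0526 to 0.110 FPKM in differentiation libraries and 0.0556 to 0.227 FPKM in control libraries. Of 13 immune markers 1, Cd68, passed the filter and was not called. Their summed level was 1.21 to 2.58 FPKM in differentiation libraries and 3.46 to 4.35 FPKM in control libraries, with Cd79a, Cd4, Tyrobp, Cd8a and Lyz2 at 0 in all 6. Of 12 endothelial, neural and muscle markers none passed the filter, and their summed level was 0.0461 to 0.425 FPKM in differentiation libraries and 0.171 to 0.283 FPKM in control libraries, with Des, Cdh5 and Sox10 at 0 in all 6. The part of such cells in the results above was not tested.

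Among 406 long non-coding RNA genes 152 rose, 67 fell and 187 were not called, against 33.6%, 32.6% and 33.9% of all genes tested. Gm11695 had 84.8, 45.3 and 39.5 FPKM in differentiation libraries and 2.54, 2.58 and 1.37 FPKM in control libraries (4.13 ± 0.31 SE, adjusted p = 5.3e-08) and Gm28512 had 23.5, 21.9 and 19.3 FPKM in differentiation libraries, against 0.517, 1.44 and 1.32 FPKM in control libraries (3.46 ± 0.33 SE, adjusted p = 5.7e-07), the largest rises among those of at least 5 FPKM in 1 medium. Snhg1, a host of small nucleolar RNAs, fell beside the ribosome genes, with 1.23, 1.89 and 2.43 FPKM with differentiation medium, against 14.3, 12.5 and 8.06 FPKM with control medium (-2.13 ± 0.25 SE, adjusted p = 4.0e-06). The labels do not state whether strand was kept, so reads of a gene and of an overlapping antisense gene cannot be told apart.

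Some abundant genes held their level with the deposited scaling. The 6 most abundant with a 95% interval of the log2 fold change within 0.3 of 0 were H3f3b, Ctnna1, Rab25, Ywhab, Trir and Ppp1ca. Ctnna1, alpha-catenin, had 128, 131 and 136 FPKM in differentiation libraries and 117, 122 and 148 FPKM in control libraries. Rab25, a small GTPase of epithelial membrane traffic, had 136, 128 and 121 FPKM in differentiation libraries and 137, 121 and 109 FPKM in control libraries. All 6 were called lower when scaled to summed reads, so that their steadiness depends on the scaling. With median-of-ratios scaling all 307 named genes, these 6 among them, kept their call or its absence.

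Within a medium, the genes that spread the most were not those of a single pathway. The gasdermin gene Gsdmc4 had 52.1, 477 and 391.5 FPKM in differentiation libraries and 35.8, 42.7 and 10.6 FPKM in control libraries, and differentiation library 1 was close to the controls. Its log2 fold change was 3.02 ± 0.62 (SE, adjusted p = 5.9e-04), and 4.03 without that library. Its near copy Gsdmc2 had 9.97, 129 and 109 FPKM in differentiation libraries, against 29.7, 23.5 and 9.30 FPKM in control libraries and was not called (1.45 ± 0.73 SE, adjusted p = 0.093), but was called without differentiation library 1 (log2 fold change 2.59, adjusted p = 0.00054). In Cyp2d26 and B4galnt2 the same library was the high one. Cyp2d26, a cytochrome P450, had 263, 62.4 and 30.7 FPKM with differentiation medium, against 2.75, 5.01 and 0.593 FPKM with control medium (4.62 ± 0.76 SE, adjusted p = 8.3e-05), and B4galnt2, a glycosyltransferase, had 70.9, 9.69 and 7.77 FPKM in differentiation libraries and 2.97, 0.805 and 1.88 FPKM in control libraries (2.78 ± 0.62 SE, adjusted p = 0.0011), which was 1.82 without library 1. Among controls Trib3, a target of the amino acid and ER stress response, had 3.54, 3.50 and 2.66 FPKM in differentiation libraries, against 55.2, 6.57 and 2.61 FPKM in control libraries. Control library 1 was high and library 3 at the level of differentiation medium. Trib3 was not called (-1.45 ± 0.74 SE, adjusted p = 0.096). It was called with the replicate number as a block (adjusted p = 0.026) and without control library 3 (adjusted p = 0.011), and its log2 fold change was -0.31 without control library 1. Of the 100 genes of largest spread in each medium, differentiation library 1 was the highest in 68 and library 3 the lowest in 61, and control library 3 the highest in 55 and library 2 the lowest in 61.

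The response of distal organoids was set against that of mid and proximal organoids, each measured against its own controls. Of the genes called higher in distal organoids 3413 (87.6%) were also called higher in mid organoids and 2729 (70.0%) in proximal organoids. Of those called lower 3383 (89.5%) and 2588 (68.5%) were. Tests of the difference in response called 2 genes (0.0172%) between distal and mid organoids and 917 genes (7.9%) between distal and proximal organoids. At an unadjusted p under 0.05 the counts were 388 and 2668. The 2 of the first are Evx2 and Gramd1b, whose calls depend on the libraries: the count was 0 without distal control library 1 or 2, mid differentiation library 1 or any 1 mid control library, 1 without distal differentiation library 1, 4 without distal differentiation library 2, 3 without mid differentiation library 3 and 5 without distal control library 3. It was also 1 without any 1 of the proximal libraries. The count of 917 was 555 without distal differentiation library 2 and 516 or 558 without proximal control library 2 or 3. Evx2, a homeobox gene beside the HoxD cluster, averaged 0.329 ± 0.132 FPKM in distal differentiation libraries and 2.12 ± 0.314 FPKM in distal controls (SD, n = 3), and was at 0 in mid and proximal libraries. Its response differed from each by -1.23 ± 0.16 (SE, adjusted p = 0.013 against mid). Evx2 passed the filter through distal control libraries alone, and the difference is its distal fall against regions where it was not seen. The SE pools the spread over all groups, and groups at 0 have none, so this SE and p-value may be too small.

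Aqp8 showed the largest difference between distal and proximal organoids among the 24 genes of largest response. Its level was 4089.9 ± 2012 FPKM in distal differentiation and 10.1 ± 3.14 FPKM in distal control libraries (SD, n = 3), while proximal organoids had 0.400 ± 0.208 and 0.276 ± 0.264 FPKM. The difference in response was 8.31 ± 0.45 (SE, adjusted p = 8.3e-08), and mid organoids, with 3078 ± 955 and 18.4 ± 3.57 FPKM, were not called different (1.18 ± 0.45, adjusted p = 0.999). Slc37a2 showed the same order, with a difference of 6.31 ± 0.57 (adjusted p = 8.8e-06) and proximal values of 0.0117 ± 0.0102 and 0.0395 ± 0.0335 FPKM. Car4 differed by 6.16 ± 0.39 (adjusted p = 3.5e-07). On the falling side Cdo1 differed by -3.66 ± 0.42 (adjusted p = 7.1e-05), with 0.164 ± 0.201 FPKM in proximal differentiation and 0.285 ± 0.0381 FPKM in proximal control libraries. Of the 24 cholesterol genes 14 had a lower response in distal than in proximal organoids, 13 without proximal differentiation library 1, and none a higher one; the median response was 0.07 in distal and 1.17 in proximal organoids. Of 26 ion and water transport genes 8 had a higher and 3 a lower response in distal organoids, and of 19 mucosal defence genes 6 and 1, or 4 and 1 without proximal differentiation library 1. Fold differences of genes that are low in 1 region are compressed by the + 1 in the log, so differences in response depend in part on level.

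**Figure D5:**
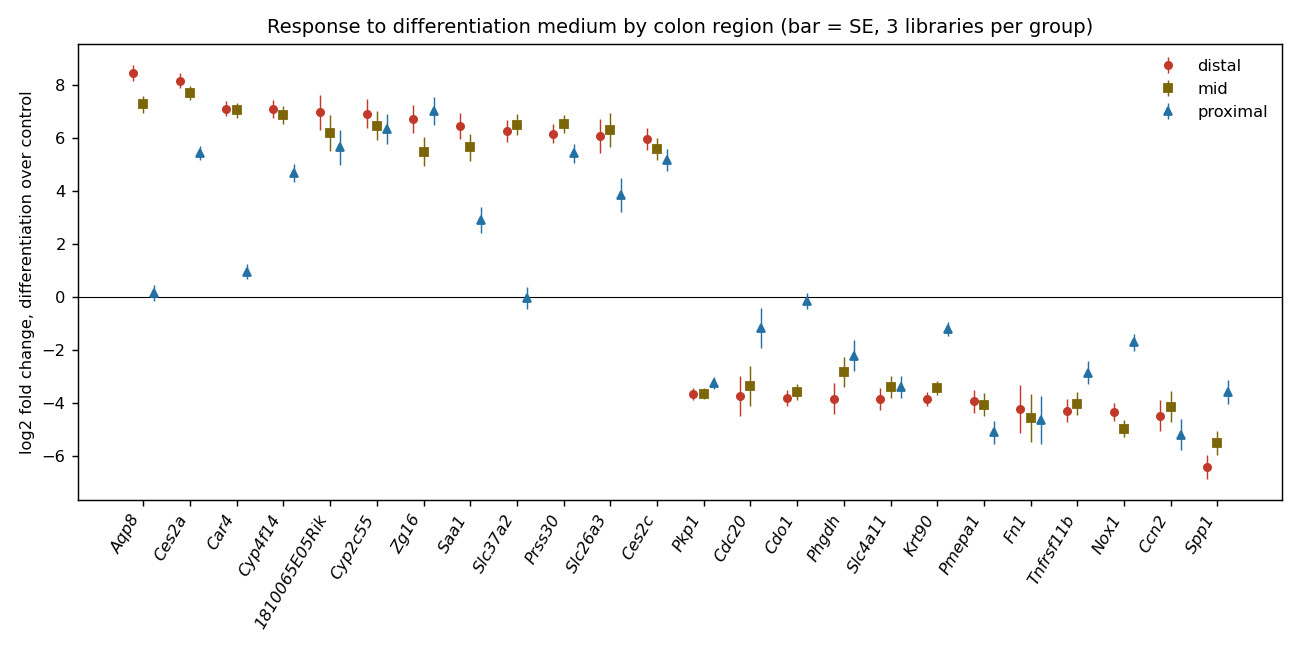
Log2 fold change, differentiation over control, with bars of 1 SE, for the 12 largest rises and 12 largest falls in distal organoids, in distal (circles), mid (squares) and proximal organoids (triangles). No response of these genes was called different between distal and mid organoids, and Aqp8, Slc37a2, Car4 and Cdo1 show the widest gaps to the proximal values, with Aqp8 at 8.46 in distal and 0.14 in proximal organoids.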

How the data were processed

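RNA from mouse colon organoids was sequenced after poly-A selection, in 18 libraries, 3 for each of 6 groups of region and medium, and the 6 distal libraries carry the comparison. FPKM values per gene were deposited by the authors, who per the submitters' processing notes used HISAT2 2.0.5, featureCounts 1.5.0-p3 and mm39. The annotation release and the library size behind the FPKM values are not given in the sources used here. FPKM times gene length gave whole reads for 100% of values, within 0.001 of a read. Summed reads were 1.08 to 1.32 times the library size behind the FPKM values in distal differentiation libraries and 0.831 to 0.873 times in distal control libraries. Libraries were matched to groups by their titles and descriptions. The 6 columns of the authors' means were not used.

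Genes of at least 1 FPKM in 3 of the 6 distal libraries were tested on log2(FPKM + 1) with limma 3.58.1 (R 4.3.3): 1 mean per group over all 18 libraries, 12 residual degrees of freedom, a trended prior, Benjamini-Hochberg adjustment over all tested genes and a threshold of 0.05. Differences in response are contrasts of the same model. Other steps used Python 3.11.15, pandas 2.3.3, numpy 2.4.6 and matplotlib 3.10.9. The procedure was tested on simulated data. Alternatives were another pseudocount, other filters and scalings, a weighted fit to recovered reads (voom), a replicate block, the 6 distal libraries alone and leaving out each library.

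The gene lists and the genes of interest were chosen with earlier results of these data known. Named genes are the 12 largest rises and falls that do not overlap between media and reach a mean of 5 FPKM, up to 6 called members of each list with those that moved against it, the measured transcription factors, the steadiest abundant genes, the largest long non-coding RNA changes and the genes of largest spread, with a few fixed marker genes. Same-numbered differentiation and control libraries deviated together, with correlations of 0.130, 0.251 and 0.170 over the tested genes. So did those of mid (0.291, 0.0527 and 0.275) and proximal organoids (0.172, 0.0336 and 0.193). Across regions this did not always hold, with -0.423, -0.159 and -0.265 between distal and proximal differentiation libraries. The 2 media of a region may therefore be paired by number, though the labels do not say what a number marks. The main fit does not use such a pairing, and the replicate block is the alternative that does. Promoter windows come from RefSeq on GRCm38.p6, whose coordinates were not mixed with those of mm39.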

Additional observations from a re-analysis of the deposited data

Results flagged for a closer look

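These results are differences between regions in the response to differentiation medium, each tested in the same limma model with Benjamini-Hochberg adjustment over all genes. Between distal and mid organoids the response differed for Evx2 by -1.23 ± 0.16 (SE) and for Gramd1b by -1.12 ± 0.17 (SE). Gramd1b was not called in distal organoids themselves at a log2 fold change of 0.19 ± 0.12 (SE), where it had 1.02, 1.15 and 0.900 FPKM with differentiation medium, against 1.03, 0.649 and 0.658 FPKM with control medium. It had 3.13 ± 0.475 FPKM in mid differentiation and 0.660 ± 0.0482 FPKM in mid control libraries (SD, n = 3).

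Against proximal organoids, Evx2 differed by the same -1.23, since its response was 0.00 in both other regions. It was not detected there, and the difference is its distal fall alone. Among the genes of largest distal rise, Aqp8 differed by 8.31, Slc37a2 by 6.31, Car4 by 6.16, Saa1 by 3.55, Ces2a by 2.73 and Cyp4f14 by 2.41, all with the higher response in distal organoids. Car4 passed the filter through distal differentiation libraries alone. Saa1 had 8.58 ± 6.57 FPKM in proximal differentiation and 0.0938 ± 0.0976 FPKM in proximal control libraries, and Ces2a had 96.7 ± 21.9 and 1.29 ± 0.783 FPKM. Among the largest falls, Cdo1 differed by -3.66, Spp1 by -2.83, Nox1 by -2.62 and Krt90 by -2.62. Nox1 and Krt90 passed the filter through distal control libraries alone. Spp1 had 0.0700 ± 0.0684 FPKM in proximal differentiation and 12.6 ± 4.87 FPKM in proximal control libraries, and Nox1 had 0.0607 ± 0.105 and 2.90 ± 2.37 FPKM. The + 1 in the log compresses fold differences at low proximal levels, as in Saa1, Spp1 and Nox1, so these differences depend in part on level. For 14 of 24 cholesterol genes the response was lower in distal than in proximal organoids.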

How the results depend on the processing

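Scaling to summed reads changed the most: 2260 genes were then called higher and 5749 lower. It turned the sign of 5 of 307 named genes, Ctnna1 (-0.41), Rab25 (-0.38), Trir (-0.41), Gata6 (-0.27) and Adam10 (-0.0037). Median-of-ratios scaling gave 3859 genes called higher and 3813 lower. A filter of 5 FPKM left 7564 genes, of which 2318 were called lower. Without 1 library at a time 3559 to 3859 genes were called higher and 3488 to 3718 lower. Fitting the 6 distal libraries alone called 3236 higher and 3182 lower, or 3296 and 3225 with the replicate block.

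The 2 genes called between distal and mid organoids became 0 with a pseudocount of 0.1, 0 with the filter of 5 FPKM, 0 with voom and 11 with no filter, and 0 to 5 without 1 library. In the limma fits that gave 0, the counts at an unadjusted p under 0.05 were 330, 194 and 304. The 917 genes between distal and proximal organoids became 516 to 1172 without 1 library. The 1 gene that differed from both regions became 0 with a pseudocount of 0.1, 0 with the filter of 5 FPKM, 0 with voom, 5 with no filter and 2 scaled to summed reads, and 0 to 3 without 1 library. Where an adjusted count changed, the cause was not tested.

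With the replicate number as a block, 3955 genes were called higher and 3840 lower, 83 calls were lost and 203 gained, and 1060 genes differed between distal and proximal organoids. The block changed the call of 3 named genes, Trib3, Ccng1 and Cdx1, and of no other. Of 4874 pairs of a named gene and a setting, 4754 kept the call or its absence, 98 lost the call and 17 gained it. Direction was compared only for genes called in the main fit or in the alternative. Depth limits genes of few reads: in differentiation library 1, the shallowest, 1 read in a gene of 1 kb was worth 0.103 FPKM.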

Other observations

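The make-up of the most abundant transcripts differed between the media. The genes named here were chosen after their values were seen. Lypd8, a secreted protein that keeps flagellated bacteria off the colon surface, took 1.82%, 1.44% and 1.40% of reads in differentiation libraries, against 0.162%, 0.0848% and 0.214% in control libraries. The peroxide-reducing enzyme Prdx6 took 1.07%, 0.830% and 0.755% in differentiation libraries, against 0.109%, 0.136% and 0.0648% in control libraries. The translation factor Eef1a1 went the other way, with 0.367%, 0.331% and 0.419% of reads in differentiation libraries, against 1.26%, 1.09% and 0.844% in control libraries, and so did Eef2, with 0.3003%, 0.283% and 0.267% in differentiation libraries and 0.626%, 0.534% and 0.399% in control libraries. Clu, clusterin, took 0.0215%, 0.0247% and 0.0841% in differentiation libraries, against 0.190%, 0.105% and 0.671% in control libraries, where control library 3 held most. These are shares of summed reads and do not use the authors' library size.

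Gapdh, often used as a loading control, had 7.78, 2.44 and 3.90 FPKM with differentiation medium, against 2.59, 2.995 and 3.38 FPKM with control medium, while Pgk1, which works next to it in glycolysis, had 1341, 778 and 610.1 FPKM with differentiation medium, against 702, 562 and 518 FPKM with control medium. Gapdh has many near-identical copies, between which reads may have been lost, so its level is uncertain.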
